A study of Mus musculus with 4 samples.

Results

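The insulin-like growth factor 1 (IGF1) axis was examined in the outflow tract of the embryonic heart, the segment from which the aortic and pulmonary roots form. The set comprised 8 of the 45706 genes in the count table, chosen by name: the ligand gene Igf1, the receptor gene Igf1r and the binding protein genes Igfbp2, Igfbp3, Igfbp4, Igfbp5, Igfbp6 and Igfbp7. The imprinted genes Igf2 and Igf2r were left out. RNA came from C57BL/6 mouse embryos at embryonic day 12.5. The 2 wild-type (WT) libraries were compared with 2 Sox17eKO libraries, in which Sox17 had been knocked out in aortic root endothelium with a Cre recombinase driven by an Nfatc1 enhancer. Which cells had lost Sox17 was not measured here, and each library held RNA of whole outflow tracts pooled from 10 hearts. The labels do not say whether the WT embryos carried the Cre or a floxed allele. The stated aim of the series was to find targets of SOX17.

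IGF1 is a secreted growth factor that signals through the receptor tyrosine kinase IGF1R, insulin receptor substrates, phosphoinositide 3-kinase and AKT to promote growth and survival of cells. Binding proteins hold most extracellular IGF, which can keep the ligand from its receptor or deliver it, and proteases such as pappalysin release it by cutting them. IGFBP7 binds IGF with low affinity and is often classed as a related protein. In the embryonic heart, IGF signals are known as mitogens for the myocardium.

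Reads assigned to genes numbered from 8113463 in WT replicate 2 to 21883956 in Sox17eKO replicate 2. Reads placed outside annotated exons made up 20.4% and 22.2% of uniquely placed reads in WT and 29.5% and 34.1% in Sox17eKO, so this share did not overlap between the genotypes. Sox17 itself, the targeted gene, had 78 and 54 reads in WT and 40 and 62 in the deeper Sox17eKO libraries, a fitted 43.8% of the level in WT (-1.19 as a log2 fold change, edgeR adjusted p = 0.00574, or 0.0786 without WT replicate 2). Markers of cardiomyocytes, smooth muscle, mesenchyme and endothelium were detected in each library. Replicates are pools of hearts, 2 per genotype, so variation among single embryos was not measured. The p-values and standard errors of edgeR do not come from a gene's own libraries alone. For each gene, edgeR also draws on how the other genes tested vary between replicates.

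The promoters of the 3 genes that changed, Igf1r, Igfbp2 and Igfbp4, are printed here with that of Igfbp5, which lies next to Igfbp2 in the genome and did not pass the test. Each run is the 250 bases before the start site in RefSeq (GRCm38.p6, the assembly that mm10 names), 5′ to 3′ on the gene's strand. The gene coordinates given further below come from GENCODE, and their starts can differ from those of RefSeq. In GENCODE, Igf1r starts at 67952827 and Igfbp5, on the minus strand, at 72874884. Distances of motifs are from the RefSeq start. Capitals mark a GC box (GGGCGG, or CCGCCC on the other strand) or a TATA box (TATAAA, or TTTATA).
Igf1r, chr7:67952007-67952256, plus strand: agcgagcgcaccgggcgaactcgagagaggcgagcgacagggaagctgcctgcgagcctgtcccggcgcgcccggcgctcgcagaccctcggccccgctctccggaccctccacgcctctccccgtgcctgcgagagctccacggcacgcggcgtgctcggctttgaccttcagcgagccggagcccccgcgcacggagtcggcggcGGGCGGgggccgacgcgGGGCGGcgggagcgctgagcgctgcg
Igfbp2, chr1:72824230-72824479, plus strand: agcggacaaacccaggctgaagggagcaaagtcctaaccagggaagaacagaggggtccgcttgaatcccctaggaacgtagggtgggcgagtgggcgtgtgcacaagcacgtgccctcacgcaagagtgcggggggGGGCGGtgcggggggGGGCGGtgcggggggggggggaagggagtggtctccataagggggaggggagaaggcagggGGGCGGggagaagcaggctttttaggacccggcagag
Igfbp4, chr11:99040994-99041243, plus strand: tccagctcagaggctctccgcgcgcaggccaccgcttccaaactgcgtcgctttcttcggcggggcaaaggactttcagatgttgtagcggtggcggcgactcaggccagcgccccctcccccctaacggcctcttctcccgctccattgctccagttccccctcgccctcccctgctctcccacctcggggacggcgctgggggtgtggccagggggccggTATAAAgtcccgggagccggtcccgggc
Igfbp5, chr1:72874866-72875115, minus strand: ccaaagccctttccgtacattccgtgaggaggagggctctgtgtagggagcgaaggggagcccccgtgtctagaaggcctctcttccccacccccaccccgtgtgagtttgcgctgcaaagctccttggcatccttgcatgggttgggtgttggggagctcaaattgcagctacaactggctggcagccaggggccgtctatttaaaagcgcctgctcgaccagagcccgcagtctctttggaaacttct

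The 3 promoters of the genes that changed differ in their letters. That of Igf1r was 77.6% G and C and held GC boxes that begin 43 and 26 bases before the start, and no TATA box. That of Igfbp2 (67.2% G and C) held 3 GC boxes, beginning 113, 98 and 37 bases before the start. That of Igfbp4 (69.2% G and C) held no GC box and a TATA box beginning 28 bases before the start. The Igfbp5 window held neither in these spellings. RefSeq listed 9 start sites for the 8 genes, with 2 for Igfbp2. The core motif of SOX factors, ACAAT, which reads as ATTGT on the other strand, was in 0 of these 9 windows and in 27.7% of 32851 mouse promoter windows of the same length. A GC box was in 3 of the 9 and in 32.7% of all windows, and a TATA box in 2 of the 9 and in 12.4% of all. No match of a motif overlapped another. These are matches of letters in a short window and say nothing of binding or of more distant elements.

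Of the 8 genes, 7 had enough reads to be tested. Igf1r rose in Sox17eKO, Igfbp2 and Igfbp4 fell, and Igf1, Igfbp3, Igfbp5 and Igfbp7 did not pass the test (edgeR's quasi-likelihood test, adjusted p under 0.05 over all 16570 genes tested). Of all genes tested, 5.35% were called changed, 4.13% higher and 1.22% lower. Each change was modest, with a fitted level in Sox17eKO of 128% of WT for Igf1r, 80.1% for Igfbp2 and 81.6% for Igfbp4. The median log2 fold change of the 7 genes was -0.03, against -0.01 over all genes tested. The groups did not overlap for 5 of the 7 genes, and for 52.8% of all genes tested. In whole tissue, fewer cells of a type and less RNA per cell cannot be told apart. None of these calls held under all alternatives that were run. With a smooth trend of each library on the length of annotated exons and gene span removed, none of the 7 genes was called by edgeR (2 had an unadjusted p under 0.05). Without WT replicate 2 or without Sox17eKO replicate 1 none was called either (3 and 2 with an unadjusted p under 0.05).

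**Figure D1:**
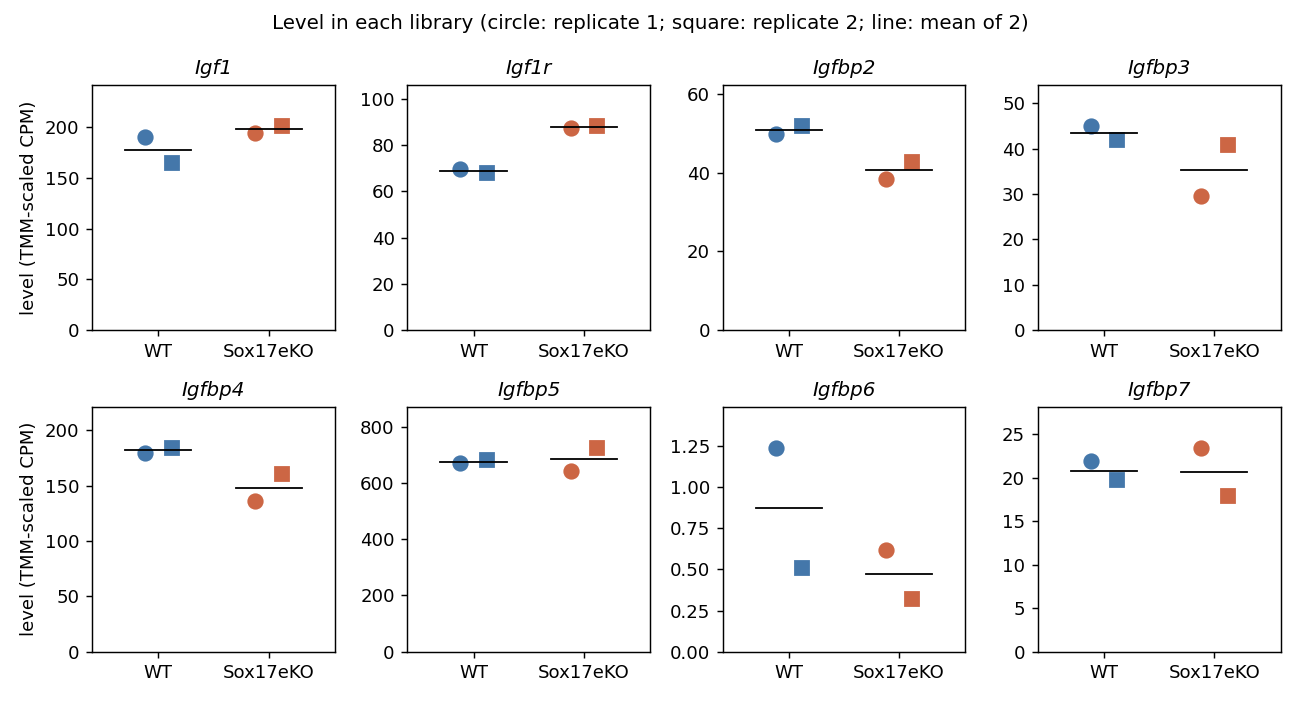
Level of each of the 8 genes (vertical axis, TMM-scaled CPM, linear from 0) in the 2 WT (blue) and 2 Sox17eKO (orange) libraries, with circles for replicate 1, squares for replicate 2 and a line at the mean of 2. Igf1r is higher in both Sox17eKO libraries (87.6 and 88.5) than in both WT libraries (69.8 and 68.1), Igfbp2 and Igfbp4 are lower in both, and Igfbp5, Igfbp6 and Igfbp7 overlap.

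The ligand gene Igf1 (ENSMUSG00000020053) lies on chromosome 10 from 87858265 to 87937042 on the plus strand of mm10. Its level was 190 and 164 CPM (counts relative to library size, scaled by TMM factors) in WT replicates 1 and 2 and 194 and 201 CPM in Sox17eKO replicates 1 and 2. Both Sox17eKO libraries were thus above both WT libraries, although Sox17eKO replicate 1 was close to WT replicate 1. The mean was 177 ± 18.2 CPM in WT and 198 ± 5.10 in Sox17eKO (SD, n = 2), and the gene did not pass, with a log2 fold change of 0.16 (95% interval -0.02 to 0.33, edgeR adjusted p = 0.288). Read numbers were 2450, 1299, 2816 and 4428 in the same order. The WT pools differed from each other by more than the means of the genotypes did. The overlapping antisense gene Igf1os held at most 1 read in any library. With the length trend removed the log2 fold change of Igf1 was 0.04, and with 1 library left out it ranged from 0.06 to 0.27 without a call.

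Igf1r (ENSMUSG00000005533), which encodes the receptor, lies on chromosome 7 from 67952827 to 68233668 on the plus strand, and its annotated exons cover 16791 bases, the most of the 8 genes. Its level was 69.8 and 68.1 CPM in WT and 87.6 and 88.5 CPM in Sox17eKO. The replicates of each genotype lay close together and the groups stood apart, at 68.9 ± 1.23 against 88.0 ± 0.629 CPM (SD, n = 2). On 900 and 538 reads in WT and 1270 and 1945 in Sox17eKO, the fit gave a log2 fold change of 0.35 ± 0.08 (standard error; edgeR adjusted p = 0.0131). DESeq2 and limma-voom also called it (adjusted p = 0.0285 and 0.0312). The direction held in each of 17 alternatives and the call in 12 of them. It was lost without WT replicate 2 (edgeR adjusted p = 0.131), without Sox17eKO replicate 1 (0.0636) and without Sox17eKO replicate 2 (0.0518), with log2 fold changes of 0.33, 0.36 and 0.34.

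Igf1r was also not called once the trend on length was removed (log2 fold change 0.08, edgeR adjusted p = 0.698). The fitted trend itself gave a difference of 0.28 on the log2 scale between Sox17eKO and WT at the length and span of Igf1r. At the length and span of Igfbp2 and Igfbp4 the fitted trend was -0.11 and -0.03. Such a step takes away whatever in the genotypes varies with length, so it does not tell which part of a change belongs to the gene.

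Igfbp2 (ENSMUSG00000039323) and Igfbp5 (ENSMUSG00000026185) lie side by side on chromosome 1 with their 3′ ends facing each other, 5457 bases apart. IGFBP2 is a binding protein that is common in embryonic tissues. Igfbp2, from 72824503 to 72852474 on the plus strand, was at 49.8 and 52.0 CPM in WT and 38.5 and 42.7 CPM in Sox17eKO. Both Sox17eKO values lay below both WT values, at means of 50.9 ± 1.56 and 40.6 ± 2.94 CPM (SD, n = 2). Fitted at -0.32 ± 0.09 on the log2 scale (standard error), the call was near the threshold (edgeR adjusted p = 0.0489). The fall kept its direction in 17 of 17 alternatives, from -0.40 to -0.16, and its call in 6. Leaving out any of the 4 libraries ended it (edgeR adjusted p = 0.0913 and 0.257 without WT replicates 1 and 2, and 0.321 and 0.0679 without Sox17eKO replicates 1 and 2). DESeq2 and limma-voom did not call it (adjusted p = 0.119 and 0.0792), nor did edgeR with library size scaling (0.0738) or without the robust option (0.0704). The log2 fold change of Igfbp2 was -0.20 with the length trend removed (edgeR adjusted p = 0.328), -0.20 with a trend on GC content removed (0.138) and -0.16 with both removed (0.363).

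Igfbp5, from 72857932 to 72874884 on the minus strand, encodes a binding protein with high affinity for IGF that also binds extracellular matrix. It had the most reads of the set, 8639 and 5399 in WT and 9321 and 15975 in Sox17eKO. Its level was 670 and 683 CPM in WT and 643 and 727 CPM in Sox17eKO. The Sox17eKO libraries lay on either side of the WT libraries, so the groups overlapped. Its fitted log2 fold change was 0.02 (95% interval -0.16 to 0.19, edgeR adjusted p = 0.933). Whether Igfbp2 and Igfbp5 differ in their response was not tested.

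Igfbp4 (ENSMUSG00000017493) lies on chromosome 11 from 99041244 to 99054392 on the plus strand. Its product is a binding protein that pappalysin 1 cuts. Its level was 179 and 184 CPM in WT and 136 and 160 CPM in Sox17eKO, with no overlap. The means were 182 ± 3.58 and 148 ± 17.3 CPM (SD, n = 2), so the Sox17eKO pools differed more from each other than the WT pools did. Igfbp4 had a log2 fold change of -0.29 ± 0.08 (standard error; edgeR adjusted p = 0.0480). The direction held in 17 of 17 alternatives, from -0.42 to -0.18, and the call in 8. It was lost without WT replicate 1 (edgeR adjusted p = 0.0964), WT replicate 2 (0.248) or Sox17eKO replicate 1 (0.416), the last with a log2 fold change of -0.18. With the length trend removed the log2 fold change was -0.25 (edgeR adjusted p = 0.127). DESeq2 and limma-voom missed the threshold (adjusted p = 0.0611 and 0.0774), as did edgeR with library size scaling (0.0811), without the robust option (0.0783) and with the length and GC trends both removed (0.0713).

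Igfbp3 (ENSMUSG00000020427), a minus-strand gene on chromosome 11 (7206086 to 7213923), encodes the main IGF carrier of adult serum. It was at 45.1 and 42.0 CPM in WT and 29.7 and 40.8 CPM in Sox17eKO. Sox17eKO replicate 1 was well below the other libraries, and Sox17eKO replicate 2 was just below WT replicate 2. With a fitted log2 fold change of -0.30 (95% interval -0.58 to -0.02) it did not pass (edgeR adjusted p = 0.212). The value moved with either Sox17eKO library. Without Sox17eKO replicate 2 the log2 fold change was -0.56 and past the threshold (edgeR adjusted p = 0.0156). Leaving out Sox17eKO replicate 1 gave -0.10 (0.787).

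Igfbp7 (ENSMUSG00000036256), a minus-strand gene on chromosome 5 (77349240 to 77408041), encodes the low-affinity relative, which is known as a secreted protein of vascular endothelium. It was at 21.9 and 19.7 CPM in WT and 23.4 and 17.8 CPM in Sox17eKO, and the latter were the highest and the lowest of the 4. Fitted, the log2 fold change was -0.03 (95% interval -0.32 to 0.26, edgeR adjusted p = 0.934). Its 3′ end overlaps that of Polr2b on the opposite strand, and the sources used here do not say whether the counting used strand.

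Igfbp6 (ENSMUSG00000023046), on chromosome 15 from 102144362 to 102149511 on the plus strand, encodes a binding protein that prefers IGF2. It had 16 and 4 reads in WT and 9 and 7 in Sox17eKO, and the filter on low counts left it out. Its level was 1.24 and 0.506 CPM in WT and 0.621 and 0.318 CPM in Sox17eKO, and the groups overlapped. Fitted without the filter, its log2 fold change lay between -2.21 and 0.10 (95% interval, edgeR adjusted p = 0.428), so a difference was not detectable at this depth.

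Levels of different genes were compared per kb of annotated exon. Igfbp5 was highest, at 107 to 121 CPM per kb over the 4 libraries, followed by Igfbp4 (30.8 to 41.8) and Igfbp2 (20.9 to 28.2). Igf1 (16.6 to 20.3) and Igfbp7 (14.7 to 19.4) came next, and their ranges overlapped, so their order is not set beyond the spread between libraries. Igfbp3 (9.47 to 14.4) was lower, then Igf1r (4.05 to 5.27) and Igfbp6 (0.286 to 1.12). The ranges of the other neighbours in this order did not overlap. When the length of the longest transcript was used in place of all exons, the 8 genes kept their rank by mean level, but other neighbours overlapped. Per kb of longest transcript, Igfbp4 (35.5 to 48.1 CPM) overlapped Igfbp2 (29.5 to 39.8), and Igfbp7 (14.9 to 19.5) overlapped Igfbp3 (12.2 to 18.6), whereas Igf1 (23.3 to 28.6) no longer overlapped Igfbp7.

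**Figure D2:**
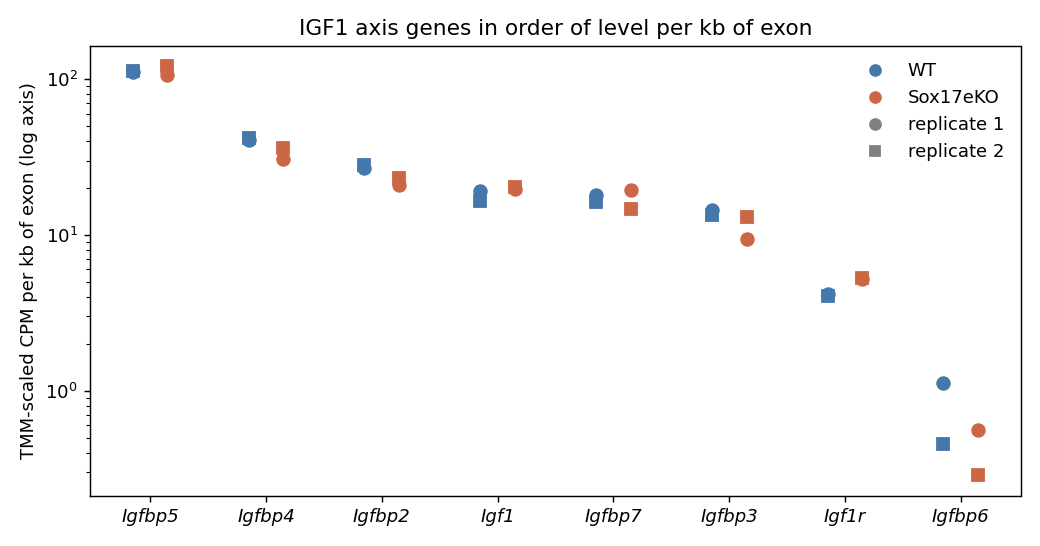
Level of the 8 genes per kb of annotated exon (vertical axis, TMM-scaled CPM per kb, log axis) in WT (blue) and Sox17eKO (orange) libraries, with circles for replicate 1 and squares for replicate 2. Igfbp5 stands above 100 in each library, Igf1 and Igfbp7 overlap, and Igfbp6 is the lowest.

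The makeup of the 6 binding protein genes was then described as shares of their summed level per kb. Igfbp5 made up 52.4% and 53.2% of the sum in WT and 56.9% and 58.0% in Sox17eKO. Igfbp4 made up 19.1% and 19.5% in WT and 16.4% and 17.4% in Sox17eKO, and Igfbp2 12.7% and 13.2% in WT and 11.1% in each Sox17eKO library. In these shares the WT and Sox17eKO libraries did not overlap for any of these 3 genes. Nor did they for Igfbp3 (6.77% and 6.28% in WT, 5.04% and 6.26% in Sox17eKO), whereas those of Igfbp6 and Igfbp7 overlapped. In CPM, 52.8% of all genes tested did not overlap. Shares of 1 sum depend on each other, and these were not tested. The summed level of the 6 binding protein genes per kb was 11.1 and 12.9 times that of Igf1 in WT and 9.59 and 10.3 times in Sox17eKO, again a description of RNA and not of protein. Shares and ratios were taken per kb of annotated exon only, and they depend on that choice of length. Igf1 has 9904 bases of exon and a longest transcript of 7052, whereas Igfbp5 has 6006 by either measure.

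**Figure D3:**
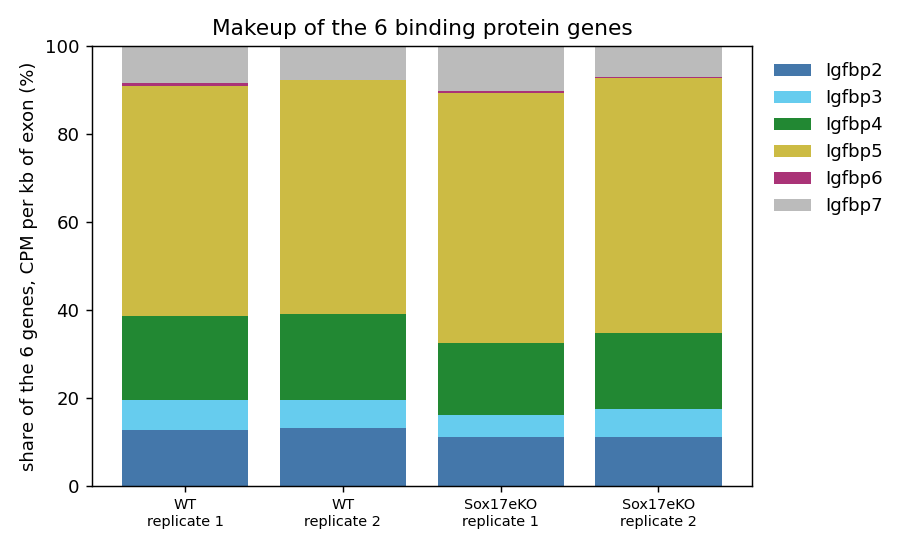
Share of each of the 6 binding protein genes in their summed level per kb of exon (vertical axis, percent) in each of the 4 libraries (bars). Igfbp5 (yellow) takes 52.4% and 53.2% in WT and 56.9% and 58.0% in Sox17eKO.

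Other genes of the pathway were read from a list of 30, of which 27 were tested. Of these, 1 rose and 2 fell (edgeR adjusted p under 0.05), against the 5.35% of all genes tested that were called, and 24 did not pass. The median log2 fold change of the list was 0.06. Among the insulin receptor and receptor adaptors, 6 of 7 were tested. Insr, the insulin receptor gene and the closest relative of Igf1r, rose from 90.4 and 93.2 CPM in the WT libraries to 109 and 122 CPM in the Sox17eKO libraries (log2 fold change 0.34, edgeR adjusted p = 0.0204). Like Igf1r it is a long gene, with 13746 bases of annotated exon, and with the length trend removed its log2 fold change was 0.13 (edgeR adjusted p = 0.496). Insr lost its call without WT replicate 1, WT replicate 2 or Sox17eKO replicate 2 (edgeR adjusted p = 0.0804, 0.117 and 0.193). Irs1, the adaptor that links these receptors to phosphoinositide 3-kinase, was at 153 and 128 CPM in WT and 168 and 172 CPM in Sox17eKO and did not pass (log2 fold change 0.27, edgeR adjusted p = 0.0688). Without WT replicate 1 it passed (0.41, adjusted p = 0.0194).

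Among 11 genes of phosphoinositide 3-kinase, AKT and mTOR signalling, 2 fell and 9 did not pass, with log2 fold changes from -0.45 to 0.24. Of all genes tested, 1.22% were called lower and 5.35% in either direction. Pik3r2, which encodes the regulatory subunit p85 beta, was at 36.4 and 41.6 CPM in WT and 25.7 and 31.0 CPM in Sox17eKO (log2 fold change -0.45, edgeR adjusted p = 0.0268). Akt1, a kinase activated downstream of IGF1R, was at 233 and 251 CPM in WT and 191 and 205 CPM in Sox17eKO (log2 fold change -0.29, edgeR adjusted p = 0.0403). For both genes the Sox17eKO libraries lay below the WT libraries without overlap, as they did for 26.2% of all genes tested. In either direction the groups did not overlap for 16 of the 27 tested genes of the list, and for 52.8% of all genes tested. Pik3r2 lost its call without WT replicate 2 or Sox17eKO replicate 1 (edgeR adjusted p = 0.246 and 0.233). Akt1 lost it without WT replicate 2, Sox17eKO replicate 1 or Sox17eKO replicate 2 (0.276, 0.274 and 0.0719). Limma-voom called neither gene (adjusted p = 0.0587 for Pik3r2 and 0.0573 for Akt1), nor did edgeR without the robust option (0.0550 and 0.0665), and Akt1 was also not called with library size scaling (0.0709). DESeq2 called Akt1 (adjusted p = 0.0356) and gave no adjusted p for Pik3r2. With the GC trend removed the log2 fold change of Akt1 was -0.18 (edgeR adjusted p = 0.0779). After removal of the trend on length neither passed (Pik3r2 -0.39, adjusted p = 0.0818, and Akt1 -0.24, adjusted p = 0.0997). The 5 genes of proteases and their inhibitors, Pappa, Pappa2, Stc1, Stc2 and Htra1, had log2 fold changes from -0.18 to 0.16 and none passed, nor did the 3 FOXO factors (-0.13 to 0.25) or Ghr, the growth hormone receptor gene (0.14). Of 3 further carriers, Igfbpl1 did not pass (-0.10), and Igfbp1 and Igfals were not tested, with 0 to 5 and 0 to 3 reads a library.

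**Figure D4:**
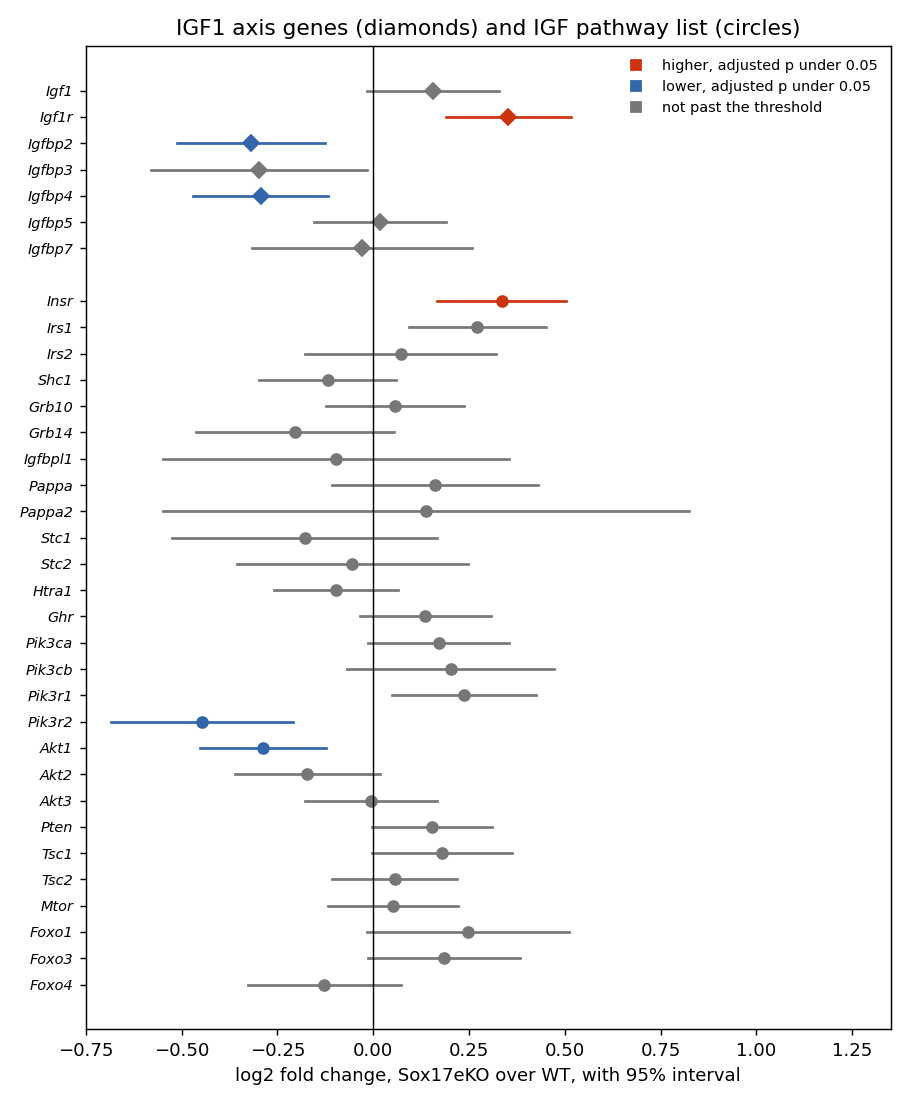
Log2 fold change of Sox17eKO over WT (horizontal axis) with its 95% interval (lines) for the 7 tested genes of the IGF1 axis (diamonds) and the 27 tested genes of the pathway list (circles), in red where higher, blue where lower and grey where not past an adjusted p of 0.05. Igf1r and Insr are the 2 that rose, and Igfbp2, Igfbp4, Pik3r2 and Akt1 the 4 that fell.

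The genes most like each changed gene across the 4 libraries were sought among 12906 other protein-coding genes, by the mean absolute difference of log2 levels centred on each gene's mean. The nearest to Igf1r were Slc36a1 (0.0066), Bend4 (0.0075) and Tnrc6a (0.0083), and 311 genes lay within 0.05. The nearest to Igfbp4 were Tpd52l1 (0.0053), Zfp365 (0.0067) and Nkiras2 (0.0093), with 192 within 0.05. The nearest to Igfbp2 were Marcksl1 (0.0091), Pxn (0.012) and Pnrc1 (0.013), with 266 within 0.05. With 4 libraries, many genes share a pattern this closely.

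Marker lists of the cell types in the tissue gave the setting for the 2 binding protein genes that fell. The summed level of 6 epicardial and mesothelial markers was 299 to 325 CPM in WT and 250 to 274 CPM in Sox17eKO. Of these, 2 of 6 fell (Upk3b and Lrrn4), against 1.22% of all genes tested. Wt1 (log2 fold change -0.06), Tbx18 (-0.08), Upk1b (-0.24) and Msln (-0.31) did not pass, and Wt1 and Tbx18 overlapped between the genotypes. The summed level of 6 smooth muscle markers was 1934 to 1978 CPM in WT and 1741 to 1791 CPM in Sox17eKO, with Cnn1 lower and Myocd higher. Most of the smooth muscle sum was Acta2 (1232 and 1194 CPM in WT, 1133 and 1128 CPM in Sox17eKO), which did not pass (edgeR adjusted p = 0.504). The summed level of 7 red cell markers was 2398 to 3226 CPM in WT and 1589 to 2138 CPM in Sox17eKO. Of these, 1 of 7 was lower (Hbb-y), and it made up most of that sum. These 3 sums were lower in both Sox17eKO libraries, as were Igfbp2, Igfbp4 and, without overlap, 26.2% of all genes tested. From Sox17eKO replicate 1 to replicate 2 the epicardial sum went from 274 to 250 CPM and the smooth muscle sum from 1791 to 1741 CPM. The red cell sum went from 1589 to 2138 CPM. Over the same 2 libraries Igfbp2 went from 38.5 to 42.7 CPM and Igfbp4 from 136 to 160 CPM. From WT replicate 1 to replicate 2 the 3 sums rose (299 to 325, 1934 to 1978 and 2398 to 3226 CPM). Igfbp2 (49.8 to 52.0 CPM) and Igfbp4 (179 to 184 CPM) rose there as well. The part of these sums in the result was not tested. The sum of 6 cardiomyocyte markers was 11891 to 12308 CPM in WT and 12587 to 14301 CPM in Sox17eKO, higher as was Igf1r, and its part was not tested either. Most of that sum was Myh7 (7049 and 7156 CPM in WT, 7538 and 8969 CPM in Sox17eKO). The median log2 fold change of the 6 was -0.0034, none rose and Nppa fell (-0.34, edgeR adjusted p = 0.0158), while Myh6 (0.23), Myh7 (0.22), Tnnt2 (0.02), Actn2 (-0.02) and Nkx2-5 (-0.23) did not pass. Sums overlapped between the genotypes for 6 endothelial markers (676 to 720 and 630 to 681 CPM, with Tie1 lower), 7 mesenchymal markers (3402 to 3802 and 3715 to 3753 CPM, with Dcn lower and Pdgfra higher), 6 macrophage markers (82.7 to 91.1 and 82.8 to 83.1 CPM) and 5 neural crest markers (34.7 to 35.4 and 31.0 to 37.4 CPM). Sums of 6 liver and yolk sac markers ran from 16.7 to 103 CPM in WT and from 7.79 to 184 CPM in Sox17eKO. No marker of these lists was without reads in all 4 libraries.

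**Figure D5:**
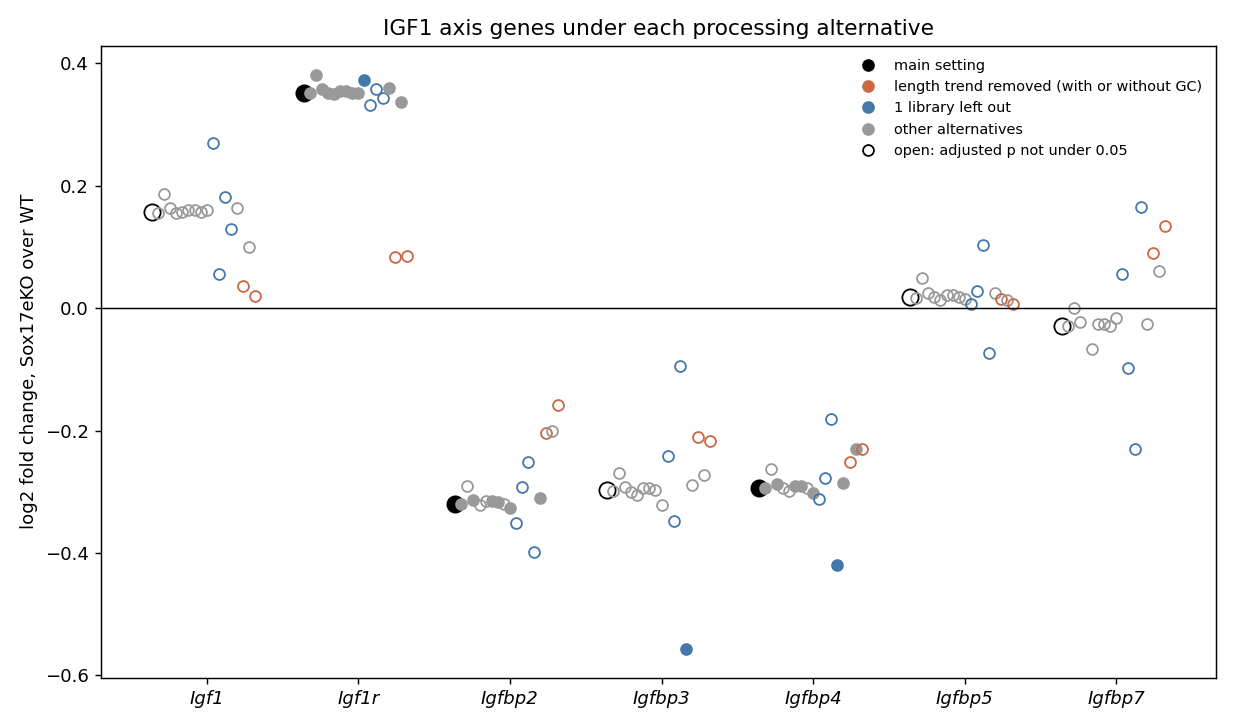
Log2 fold change of Sox17eKO over WT (vertical axis) of the 7 tested genes under the main setting (black) and each alternative, filled where the adjusted p was under 0.05. Igf1r lies between 0.33 and 0.38 except where a length trend was removed (orange, 0.08), Igfbp2 and Igfbp4 stay below 0 throughout, and Igfbp3 ranges from -0.56 to -0.10.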

How the data were processed

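RNA was counted per gene in 4 strand-specific Illumina libraries of outflow tract, each from 10 pooled hearts, per the labels' protocols. The deposited table holds unnormalized counts of reads for each Ensembl gene. TopHat2, HTSeq and mm10 were used, per the submitters' processing notes. Their versions, the annotation release and the use of strand are not given in the sources used here. The 5 HTSeq summary rows were left out. Unique reads outside features were 20.4% to 34.1% and ambiguous reads 3.38% to 6.22% of uniquely placed reads. Alignments that were not unique, a row that may hold a read more than once, were not assigned to genes. They made up 72.5% to 79.0% of that row and the uniquely placed reads together, most in WT replicate 2. Of 45706 genes, 45143 matched GENCODE M21 (GRCm38), the source of symbols, coordinates and lengths. That release may differ from the one counted on.

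Counts were tested with edgeR 4.0.16 (R 4.3.3) by the quasi-likelihood test, robust, with TMM factors, filterByExpr and genotype as the only term (prior count 0.125, 2 residual degrees of freedom), with Benjamini-Hochberg adjustment over 16570 genes. Standard errors were taken as the absolute log2 fold change over the square root of F. Alternatives were DESeq2 1.42.0, limma-voom (limma 3.58.1), other scalings and filters, a replicate block, 1 library left out, and trends on length or GC content removed (mgcv 1.9.3). Fits with a trend removed used protein-coding genes alone, and their adjustment was over the 13361 of these that were tested. Scripts were tested on simulated counts. The genes and lists were chosen with earlier results of these data known. Named were the 8 genes, Sox17, called pathway genes (at least the 4 with the smallest p), and the 3 genes most like each called gene. Marker genes named beside their sums are those that passed the test. Acta2, as most of its sum, and all cardiomyocyte, epicardial and mesothelial markers are named as well. The untested Igfbp1 and Igfals were named after their values were seen.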

Additional observations from a re-analysis of the deposited data

How the results depend on the processing

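Against 3 genes of the IGF1 axis called, 1 was called with library size scaling, with DESeq2, with limma-voom and without the robust option (Igf1r in each), and 0 after removal of the length trend or of the length and GC trends (edgeR, 2 and 1 with an unadjusted p under 0.05). With 1 library left out, 0 to 2 were called. Of the pathway list, 3 were called, against 1 with limma-voom, 1 without the robust option, 0 after removal of the length trend or of both trends (edgeR, 5 with an unadjusted p under 0.05 in each) and 0 to 3 with 1 library left out. Over all genes, 886 were called, against 390 with DESeq2, 517 with limma-voom, 1364 with no filter, 124 with the length trend removed, 283 after removal of both trends and 103 to 970 with 1 library left out. With library size scaling 769 were higher and 111 lower, against 684 and 202. The count with no filter is out of 27989 genes tested. Trends were removed on protein-coding genes alone, with 13361 tested. On these genes with no trend removed 749 were called, with 3 genes of the axis and 4 of the pathway list among them. The causes were not tested. The log2 fold change of Igfbp7 turned positive with library size scaling (0.00054) and with the length (0.090), GC (0.061) or both trends removed (0.13), and ranged from -0.23 to 0.16 with 1 library left out. That of Igfbp5 ranged from -0.074 to 0.10 with 1 library left out, below 0 without Sox17eKO replicate 2. None of these was called. Replicate numbers come from the library titles, which name no pairing. Deviations of same-numbered libraries had a correlation of -0.03, which cannot decide whether they were paired with 2 libraries per genotype. With the replicate block 3 genes of the axis, 4 of the pathway list (Irs1 added) and 1684 genes were called. The lone library left in a genotype is assumed to vary like the others. Depth limited Igfbp6, with 4 to 16 reads a library.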
